A study of Arabidopsis thaliana with 12 samples.

Results

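After ABA, seedlings of nup85-1 were compared with seedlings of Col-0 over all nuclear genes of the count table. The libraries were chosen by their labels alone: the 3 ABA libraries of each genotype, 6 of the 12 libraries in the series. The table lists 33602 genes, of which 33323 are nuclear. Of these, 19763 had enough reads to be tested with replicates 1 and 2, and 20165 with all 3 replicates. Col-0 is the wild-type accession of Arabidopsis thaliana. The mutant nup85-1 carries a T-DNA insertion in NUP85 (AT4G32910, chr4:15881245-15885518) and is represented by 1 insertion line. Whole seedlings of both genotypes, 7 days old and grown on diluted Murashige and Skoog medium, had received 50 µM ABA for 3 h before RNA extraction. Mock seedlings of both genotypes went through the same 3 h without ABA and serve here only for comparison.

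NUP85 is a scaffold protein of the NUP107-160 subcomplex, part of the nuclear pore complex through which proteins enter the nucleus and mRNA leaves it. Abscisic acid (ABA) is the hormone of drought, salt and seed dormancy. It is bound by PYR/PYL receptors, which then hold back the clade A PP2C phosphatases, so that SnRK2 kinases can activate bZIP factors such as ABI5 and the ABFs. These factors bind the ABA-responsive element (ABRE) in the promoters of genes such as RD29B.

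The ABA libraries held 13180349 to 29798437 reads on genes, 99.61 to 99.94% of them on nuclear genes. Levels below are read counts scaled to the size of each library (normalized CPM), given in the order of replicates 1, 2 and 3. NUP85 itself measured 3.21, 1.99 and 17.0 CPM in nup85-1, against 40.5, 41.7 and 29.4 CPM in Col-0. The groups did not overlap, but the library labelled nup85-1 replicate 3 lay nearer to Col-0 than the other nup85-1 libraries did. In the mock libraries of replicate 3, NUP85 went against the labels, with 27.5 CPM in the library labelled nup85-1 and 16.0 CPM in the library labelled Col-0. Replicate 3 also stood apart within each genotype. In nup85-1, log2 CPM differed with an SD of 0.38 between replicates 1 and 2 and of 0.84 to 0.85 between either of them and replicate 3, and in Col-0 these SDs were 0.29 and 0.74 to 0.78. Results are therefore given for replicates 1 and 2, and most of them also for replicate 3 or for the fit over all 3 replicates, and nup85-1 replicate 3 stands throughout for the library so labelled.

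Fold changes are log2 values of nup85-1 over Col-0 from edgeR with replicates 1 and 2 (n = 2 libraries each), given with the standard error (SE) and the adjusted p over all genes tested. A gene was called where the adjusted p was under 0.05 and the change at least 1.5-fold. In bulk seedlings, fewer cells of a type and less RNA per cell cannot be told apart.

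With replicates 1 and 2, 588 of 19763 nuclear genes were called, 2.98% of those tested. In nup85-1, 289 of them were higher (1.46%) and 299 were lower (1.51%). Counts of called genes in the lists and families below are to be read beside these shares. The higher genes included SAUR growth genes, some AP2/ERF transcription factors and regulators of iron deficiency. The lower genes included defensins, salicylate and jasmonate defence genes, small heat shock proteins, fermentation genes and glycosyltransferases.

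With all 3 replicates and no term for the replicate number, edgeR called 0 of 20165 genes (0%), with 995 at an unadjusted p under 0.05 and a smallest adjusted p of 0.114, while DESeq2 called 88. With the replicate number as a block, edgeR called 277 of 20165 genes (1.37%), 181 of them higher (0.898%) and 96 lower (0.476%). The 588 and the 277 genes shared 214, which is 36.4% of the 588 and 77.3% of the 277, and of the shared genes 139 were higher and 75 lower. The count for replicates 1 and 2 depended on the library left out. It was 18 without Col-0 replicate 1, 70 without Col-0 replicate 2, 1374 without nup85-1 replicate 1 and 1261 without nup85-1 replicate 2, with the lone library assumed to vary like the other genotype.

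Replicate 3 was not used in the 588 calls, so its own difference can be set beside them. It had the same sign for 474 of 588 genes (80.6%), against 57.5% of all tested genes. For genes called higher in nup85-1 the sign was the same in 254 of 289 (87.9%), with a median difference of 0.62 in replicate 3 on the log2 scale, against a median change of 0.98 in replicates 1 and 2. For genes called lower it was the same in 220 of 299 (73.6%), with a median of 0.28 in the direction of the call, against 1.04 in replicates 1 and 2. The medians of replicates 1 and 2 are raised by the selection of the genes on these replicates. The 3 libraries of one genotype lay entirely above or below the 3 of the other for 2283 of 20165 genes (11.3%). Among the called genes this held for 204 of 582 tested with all 3 replicates (35.1%), 124 of them higher and 80 lower. Replicates 1 and 2 are part of this count and were used in the calls. A higher share among called genes was therefore built in and is no independent check.

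**Figure D1:**
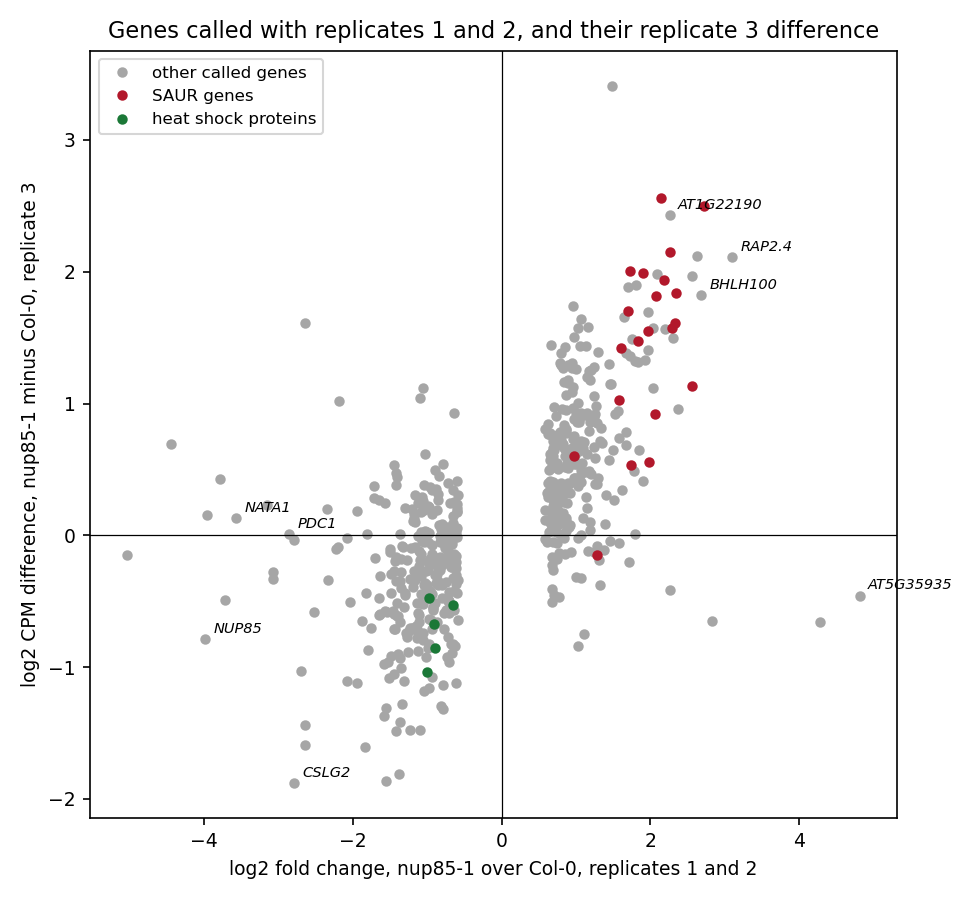
Log2 CPM difference between nup85-1 and Col-0 in replicate 3 (vertical axis) against the log2 fold change with replicates 1 and 2 (horizontal axis), 1 point for each of 584 called genes, with SAUR genes and heat shock proteins coloured; PR1, PDF1.2A, PDF1.2c and PDF1.3 lie beyond the axis and are not drawn. Over all 588 genes, 254 of the 289 called higher lie above 0, while 220 of the 299 called lower lie below it.

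2 of the genes with the highest fold changes belonged to the DREB A-6 group of AP2/ERF transcription factors. RAP2.4 (AT1G78080, chr1:29364072-29366207) measured 2301, 2363 and 1343 CPM in nup85-1, against 265, 284 and 311 CPM in Col-0. All 3 nup85-1 libraries lay above all 3 Col-0 libraries, and the fold change was 3.1 (SE 0.135, adjusted p = 0.00344). Its relative AT1G22190 (chr1:7835781-7837411) measured 318, 327 and 245 CPM in nup85-1, against 64.8, 70.5 and 45.4 CPM in Col-0, again with no overlap, for a fold change of 2.26 (SE 0.110, adjusted p = 0.00344). Both were also called with the replicate block, RAP2.4 at 2.77 and AT1G22190 at 2.32. Of the 9 tested DREB A-6 genes these 2 were called, 8 were positive with replicates 1 and 2, and all 9 were positive in replicate 3. The median of the list was 0.57, where the median of all tested genes was 0.00.

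The CBF and DREB2 factors, which switch on cold- and drought-regulated genes, gave 3 higher calls among 6 tested genes. The share over all tested genes was 1.46%, and the median of the list was 0.87. CBF2 measured 58.1, 39.3 and 57.1 CPM in nup85-1, against 11.4, 9.68 and 19.2 CPM in Col-0. Its libraries did not overlap, and it rose by 2.2 (SE 0.213, adjusted p = 0.0108). With the block CBF2 was called at 1.98, and none of the other 5 was. CBF3 rose by 1.28 (SE 0.186, adjusted p = 0.0267), but measured 18.2 CPM in nup85-1 replicate 3, against 19.3 CPM in Col-0 replicate 3. DREB2B rose by 1.07 (SE 0.161, adjusted p = 0.0299), but measured 11.9 CPM in nup85-1 replicate 3, against 11.9 CPM in Col-0 replicate 3. For these genes replicate 3 showed little difference between the genotypes. DREB26, another DREB factor, was chosen after its values were seen and measured 106, 96.9 and 29.6 CPM in nup85-1, against 23.4, 28.9 and 11.1 CPM in Col-0. It rose by 1.97 (SE 0.138, adjusted p = 0.00764), with nup85-1 above Col-0 in every library.

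Among 11 tested stress-response ERFs, ethylene response factors that respond to wounding and pathogens, ERF11 and ERF105 were called higher. All 11 were positive with replicates 1 and 2, and all 11 in replicate 3, with medians of 0.45 and 1.2. ERF11, a transcriptional repressor, measured 16.5, 14.2 and 19.8 CPM in nup85-1, against 4.23, 4.65 and 5.22 CPM in Col-0. Its libraries did not overlap, for a fold change of 1.81 (SE 0.162, adjusted p = 0.0102). ERF105 measured 9.07, 8.45 and 9.19 CPM in nup85-1, against 4.41, 3.90 and 4.77 CPM in Col-0, also without overlap, for a fold change of 1.07 (SE 0.169, adjusted p = 0.0327). The block called both and also ERF4, another repressor of this family, which measured 121, 66.8 and 94.1 CPM in nup85-1, against 38.4, 40.2 and 41.1 CPM in Col-0. Sets drawn by the wording of the annotation had lower medians, but they do not hold all factors named above. Of 56 tested genes annotated as AP2/ERF factors 2 were called higher and 36 were positive, with a median of 0.10. The highest fold change in this set was 1.81, so RAP2.4, AT1G22190, CBF2 and DREB26 lay outside it. Its counts therefore do not stand for the whole family. Of 51 tested integrase-type DNA-binding proteins, which include AT1G22190 and ERF105, 3 were called higher and 30 were positive, with a median of 0.19. The 11 stress zinc-finger genes gave no call with replicates 1 and 2 and a median of 0.53. Of these, the block called ZAT10, a repressor induced by many stresses, which measured 41.0, 35.4 and 104 CPM in nup85-1, against 27.1, 19.6 and 43.0 CPM in Col-0. The ZAT10 libraries of the genotypes overlapped, because replicate 3 was the highest library of both.

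**Figure D2:**
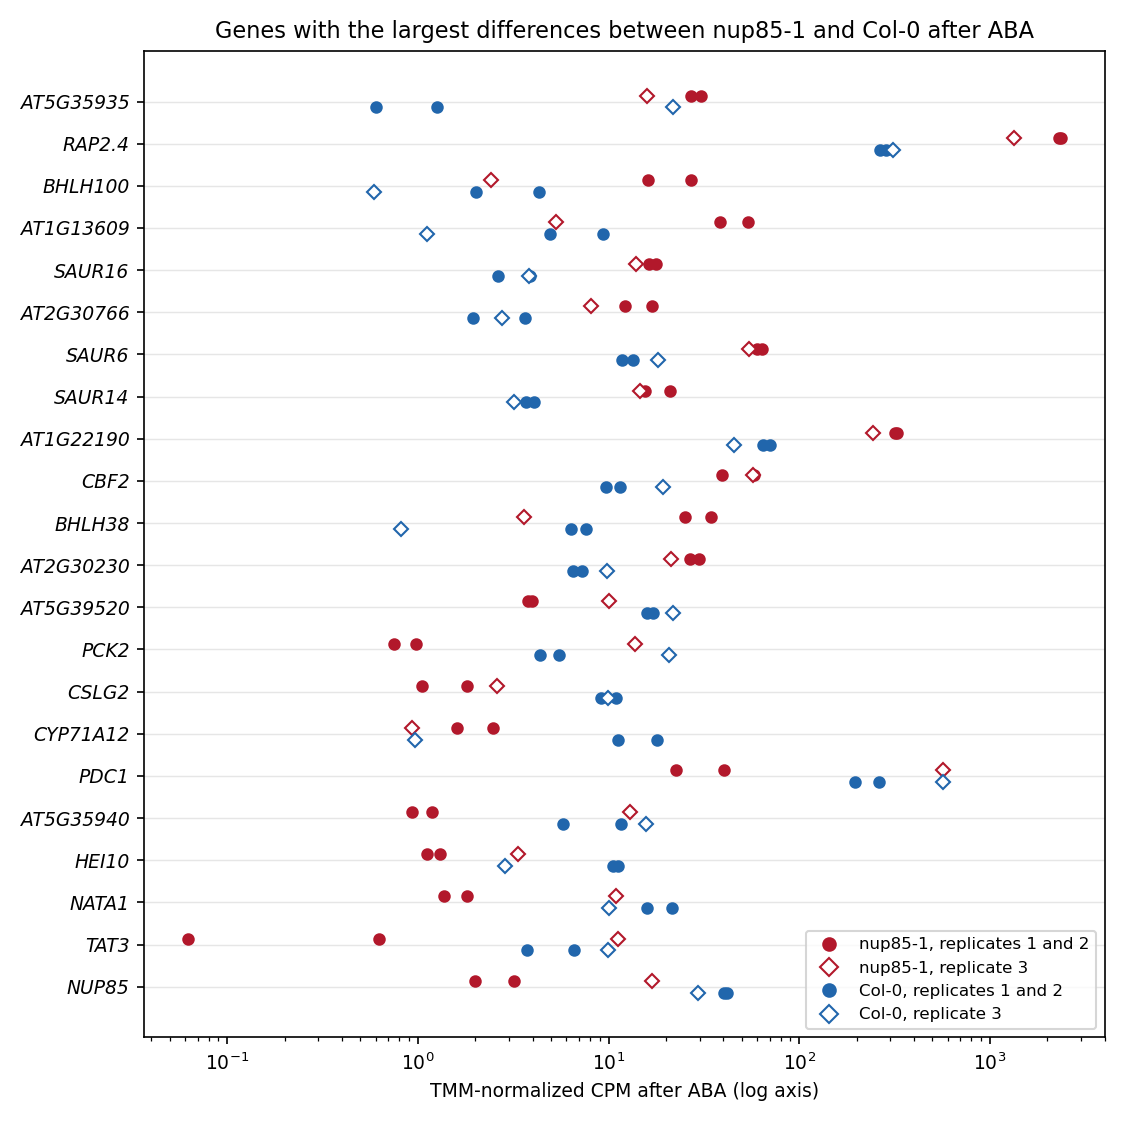
Normalized CPM after ABA on a log axis, 1 point for each library, for 22 of the 24 genes with the highest and the lowest fold change among those called with replicates 1 and 2; nup85-1 is drawn above Col-0 and replicate 3 as open diamonds, and PDF1.2A and PDF1.3 are not drawn because a library was at 0. RAP2.4 and SAUR6 are separated in all 3 replicates, whereas HEI10, NATA1 and PDC1 are separated in replicates 1 and 2 and lie together in replicate 3.

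SAUR genes encode small auxin-induced proteins that hold back PP2C.D phosphatases and so keep plasma membrane proton pumps active while cells expand. After ABA, 21 of 50 tested SAUR genes were higher in nup85-1, where 1.46% of all tested genes were, and none was lower. Their median fold change was 1.31, and 47 of 50 were positive. In replicate 3, 43 of 50 were positive, with a median of 0.88, and the block called 17 of 53 tested genes. Summed over the family, SAUR transcripts reached 622, 600 and 516 CPM in nup85-1, against 287, 301 and 315 CPM in Col-0, with no overlap of the groups.

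SAUR6 measured 59.9, 63.5 and 54.5 CPM in nup85-1, against 13.4, 11.8 and 18.2 CPM in Col-0. It rose by 2.29 (SE 0.107, adjusted p = 0.00344), with every nup85-1 library above every Col-0 library. SAUR16 measured 16.3, 17.7 and 14.0 CPM in nup85-1, against 3.87, 2.63 and 3.81 CPM in Col-0, also without overlap, for a fold change of 2.35 (SE 0.197, adjusted p = 0.0101). SAUR14 rose by 2.27 (SE 0.195, adjusted p = 0.0101) and was 2.15 higher in replicate 3 on the log2 scale. SAUR20 had the highest fold change of the family, 2.72 (SE 0.258, adjusted p = 0.0108), and measured 6.07, 8.08 and 1.03 CPM in nup85-1, against 1.00, 1.2 and 0.0740 CPM in Col-0. Both genotypes had less SAUR20 in replicate 3, so that the nup85-1 library of replicate 3 lay within the Col-0 range, while the difference within replicate 3 was 2.5. SAUR50, chosen after its values were seen and known in Arabidopsis as a gene of light-controlled cotyledon growth, measured 26.9, 31.2 and 12.9 CPM in nup85-1, against 8.35, 9.91 and 3.89 CPM in Col-0.

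Several of these genes lie side by side. SAUR62 to SAUR65 at chr1:10302585-10308246 were 4 adjacent tested genes called higher. SAUR29 to SAUR26 at chr3:976715-983768 were another 4, and SAUR19 to SAUR21 at chr5:5962773-5969190 another 3. Members of such clusters are close copies. How reads that map to several genes were treated is not given in the sources used here, so the counts of single members are uncertain, and the sum over the family depends on this less.

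**Figure D3:**
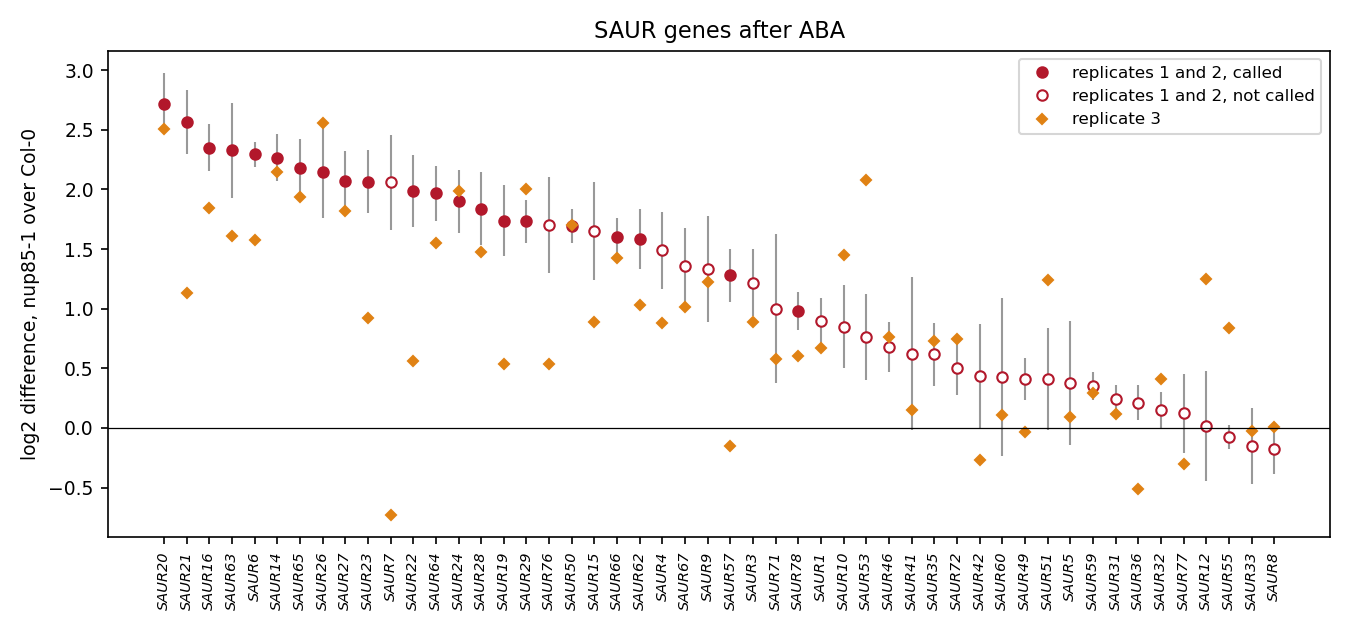
Log2 difference between nup85-1 and Col-0 for each tested SAUR gene, with circles for the fold change with replicates 1 and 2 (filled where called, bars of 1 SE) and diamonds for replicate 3 alone. With replicates 1 and 2, 47 of 50 values lie above 0, and in replicate 3, 43 of 50 do.

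Other hormone lists held fewer calls than the SAUR genes, and over all tested genes 1.46% were higher. Of 24 tested Aux/IAA genes, repressors of auxin signalling that are themselves induced by auxin, IAA2 and IAA29 were called higher and the block added IAA1. IAA2 measured 363, 387 and 157 CPM in nup85-1, against 214, 239 and 83.8 CPM in Col-0, with nup85-1 higher within each replicate and overlap between replicates, for a fold change of 0.74 (SE 0.116, adjusted p = 0.0327). No GH3 gene (6 tested) and no alpha-expansin (16 tested) was called. Type-A response regulators dampen cytokinin signalling, and 2 of 8 were called higher. All 8 were positive with replicates 1 and 2, and in replicate 3, 5 were positive and 3 negative. ARR7 rose by 1.26 (SE 0.158, adjusted p = 0.0192) and was 0.59 higher in replicate 3. ARR16 rose by 1.37 (SE 0.193, adjusted p = 0.0252), but measured 21.6 CPM in nup85-1 replicate 3, against 23.4 CPM in Col-0 replicate 3. GASA6, a gibberellin-regulated gene of growth, measured 115, 122 and 11.4 CPM in nup85-1, against 57.4, 65.8 and 3.33 CPM in Col-0. It was higher in nup85-1 within each replicate, and rose by 0.96 (SE 0.110, adjusted p = 0.0159).

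BEE1, BEE2 and BEE3, bHLH factors of brassinosteroid-promoted growth, were chosen after their values were seen. BEE1 measured 36.6, 37.9 and 22.3 CPM in nup85-1, against 18.1, 20 and 15.3 CPM in Col-0, without overlap. The fold changes were 0.98 for BEE1 (SE 0.105, adjusted p = 0.0135), 0.74 for BEE2 (SE 0.0997, adjusted p = 0.0232) and 0.98 for BEE3 (SE 0.106, adjusted p = 0.0135), and the block called all 3 genes. The 7 listed brassinosteroid genes held no call.

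Of 15 ethylene genes, EBF1 and ACS11 were called higher. EBF1, an F-box protein that removes the ethylene factor EIN3, measured 259, 291 and 255 CPM in nup85-1, against 139, 139.8 and 163 CPM in Col-0. Its libraries did not overlap, and it rose by 0.99 (SE 0.107, adjusted p = 0.0138). EBF2, of the same function, measured 674, 546 and 482 CPM in nup85-1, against 382, 361 and 279.9 CPM in Col-0 and was called with the block at 0.74 but not with replicates 1 and 2 (SE 0.143, adjusted p = 0.0554). ACS11, an enzyme of ethylene synthesis, rose by 0.90 (SE 0.161, adjusted p = 0.0445) and was 1.29 higher in replicate 3.

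Touch genes respond to mechanical stimuli. Of 7 tested, TCH2 and TCH4 were higher, both with replicates 1 and 2 and with the block. TCH2, a calmodulin-like protein, measured 78.0, 62.5 and 61.5 CPM in nup85-1, against 35.9, 32.9 and 39.5 CPM in Col-0. Its libraries did not overlap, for a fold change of 1.04 (SE 0.137, adjusted p = 0.0213). TCH4, a xyloglucan enzyme of the cell wall, measured 1027, 1133 and 513 CPM in nup85-1, against 550.1, 649 and 326 CPM in Col-0 and rose by 0.86 (SE 0.141, adjusted p = 0.0355). Its nup85-1 replicate 3 lay below the Col-0 libraries of replicates 1 and 2. Among all 102 tested EF-hand calcium-binding genes, 7 were higher and none was lower, with a median of 0.00, and the block called 5 higher. Over all tested genes 1.46% were higher with replicates 1 and 2, and 0.898% with the block. CAF1a, a deadenylase that shortens mRNA tails, was chosen after its values were seen and measured 48.7, 39.6 and 33.7 CPM in nup85-1, against 13.6, 13.8 and 9.03 CPM in Col-0, for a fold change of 1.70 (SE 0.136, adjusted p = 0.00933).

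Iron-deficient plants make the bHLH factors BHLH38, BHLH39, BHLH100 and BHLH101, which act with FIT to switch on iron uptake. Of 13 tested genes of iron deficiency and storage, 3 were higher with replicates 1 and 2 and the same 3 with the block. Over all tested genes the shares called higher were 1.46% and 0.898%. BHLH38 measured 34.5, 25.1 and 3.59 CPM in nup85-1, against 7.60, 6.38 and 0.814 CPM in Col-0, and rose by 2.09 (SE 0.197, adjusted p = 0.0108). BHLH100 measured 27.1, 16.2 and 2.43 CPM in nup85-1, against 4.34, 2.03 and 0.592 CPM in Col-0, and rose by 2.68 (SE 0.376, adjusted p = 0.0252). Both genes were low in replicate 3 of both genotypes, where nup85-1 was still higher than Col-0, by 1.98 for BHLH38 and 1.82 for BHLH100. BHLH39, which lies next to BHLH38 and is a close copy, rose by 1.92 (SE 0.193, adjusted p = 0.0122). BHLH101 was picked out with its values known and was not called, at 1.46 (SE 0.276, adjusted p = 0.0516). The uptake genes IRT1 and FRO2, a transporter and a reductase, had fold changes of 0.30 (SE 0.154, adjusted p = 0.317) and 0.35 (SE 0.227, adjusted p = 0.415) and were not called. In replicate 3 IRT1 was 2.45 and FRO2 2.2 higher in nup85-1.

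Other genes among the highest had no list. AT1G13609, a defensin-like gene, measured 53.7, 38.2 and 5.27 CPM in nup85-1, against 9.39, 4.95 and 1.11 CPM in Col-0. It rose by 2.63 (SE 0.298, adjusted p = 0.0154) and was called with the block at 2.61. AT2G30766, annotated as an uncharacterized protein, measured 16.8, 12.2 and 8.07 CPM in nup85-1, against 3.66, 1.95 and 2.78 CPM in Col-0, without overlap, for a fold change of 2.3 (SE 0.300, adjusted p = 0.0211). AT2G30230, annotated as a lumazine synthase, rose by 2.04 (SE 0.133, adjusted p = 0.00705), also without overlap. AT5G35935 (chr5:14083388-14089891), annotated as uncharacterized, had the highest fold change of the genes named by rule, 4.82 (SE 0.25, adjusted p = 0.00344). It measured 30.4, 27.0 and 15.9 CPM in nup85-1, against 1.25, 0.6 and 21.8 CPM in Col-0, and in replicate 3 the order of the genotypes was the opposite. The next tested gene, AT5G35940, a lectin, fell by 3.07 on the log2 scale (SE 0.419, adjusted p = 0.0238). BBX28, a B-box zinc finger chosen after its values were seen, measured 39.6, 32.8 and 78.5 CPM in nup85-1, against 11.1, 10.8 and 30.5 CPM in Col-0 and rose by 1.73 (SE 0.135, adjusted p = 0.00893).

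Among 11 morning-phased clock genes, 4 were higher with replicates 1 and 2 and none with the block, with a median of 0.62. Over all tested genes 1.46% were higher with replicates 1 and 2. CDF1, a repressor of flowering genes, measured 11, 13.9 and 33.4 CPM in nup85-1, against 4.44, 4.80 and 22.4 CPM in Col-0, and rose by 1.45 (SE 0.179, adjusted p = 0.0180). PRR9, a repressor in the clock, measured 6, 8.20 and 98.0 CPM in nup85-1, against 2.76, 1.5 and 60.9 CPM in Col-0, and rose by 1.67 (SE 0.308, adjusted p = 0.0473). Both genes were highest in replicate 3 of both genotypes, so the groups overlapped. LNK2 and RVE4, a clock coactivator and a MYB-like clock factor, rose by 0.68 (SE 0.0991, adjusted p = 0.0276) and 0.62 (SE 0.0965, adjusted p = 0.0324). Of 11 evening genes, PRR5 rose by 0.77 (SE 0.0922, adjusted p = 0.0168) and BOA fell by 0.75 on the log2 scale (SE 0.111, adjusted p = 0.0282). In replicate 3 LNK2 measured 138 CPM in nup85-1, against 154 CPM in Col-0, and PRR5 measured 134 CPM in nup85-1, against 148 CPM in Col-0. The block called no evening gene, and in replicate 3, 1 of the 11 was positive.

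**Figure D4:**
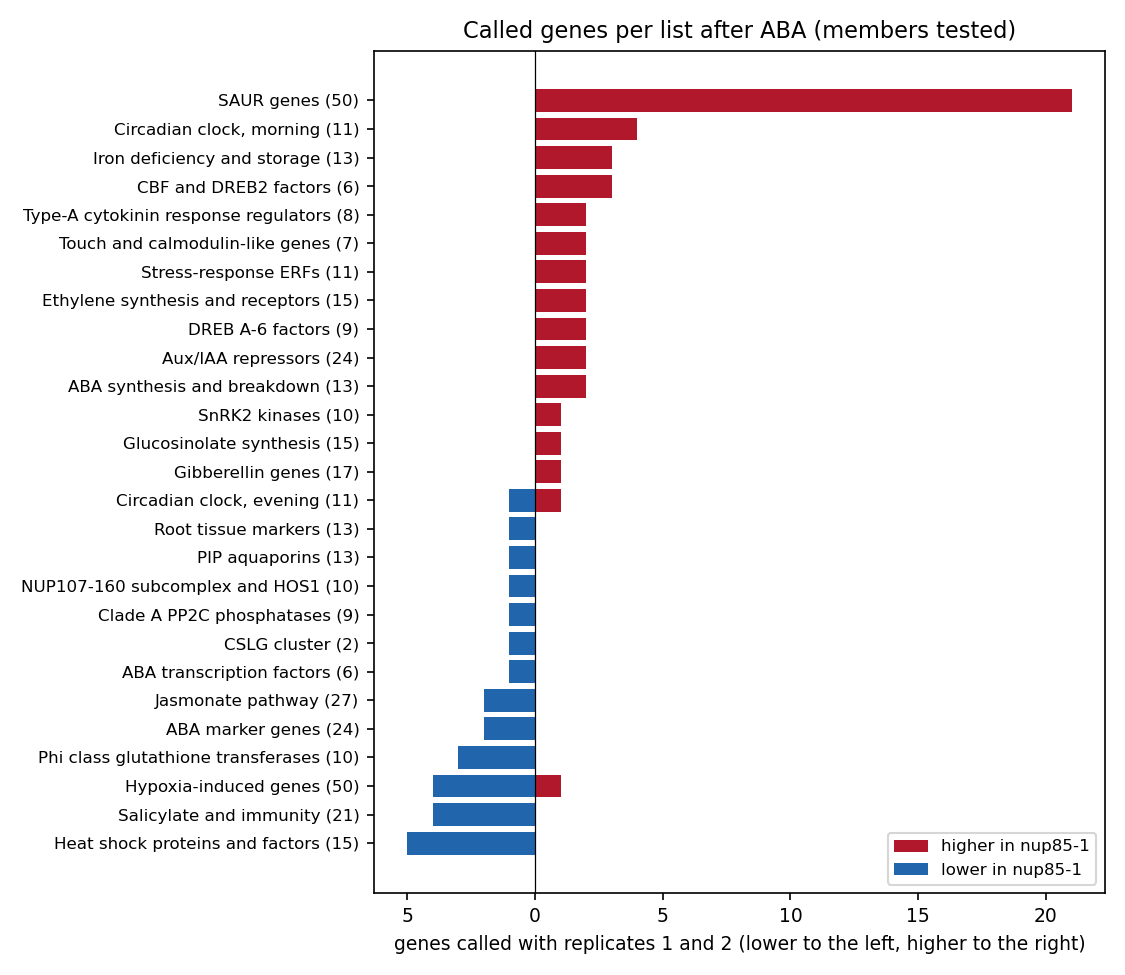
Number of genes called with replicates 1 and 2 in each of the 27 gene lists that held a call, with genes lower in nup85-1 drawn to the left and genes higher to the right and the number of members tested in brackets. SAUR genes have 21 calls to the right and heat shock proteins 5 to the left.

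In the ABA pathway itself single members were called, where over all tested genes 1.46% were higher and 1.51% lower. In lists this short a single call already lies above these shares. None of 8 tested receptors was called, and SNRK2.4, 1 of 10 SnRK2 kinases and an osmotic stress kinase that ABA activates little, rose by 0.74 (SE 0.116, adjusted p = 0.0324), without a call by the block. Of 9 clade A PP2C genes, HAI1 fell by 0.71 on the log2 scale (SE 0.129, adjusted p = 0.0455), but measured 345 CPM in nup85-1 replicate 3, against 262 CPM in Col-0 replicate 3, the opposite order. Of 13 tested genes of ABA synthesis and breakdown, 2 were higher. These were CYP707A2 and CYP707A3, which break ABA down. They rose by 0.88 (SE 0.125, adjusted p = 0.0254) and 0.69 (SE 0.116, adjusted p = 0.0374), and the block called CYP707A3.

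Of 6 tested ABA transcription factors, ABI5 was lower. It measured 16.7, 15.2 and 7.84 CPM in nup85-1, against 26.2, 26.5 and 11.1 CPM in Col-0. Within each replicate nup85-1 lay below Col-0, while the Col-0 library of replicate 3 lay below the nup85-1 libraries of replicates 1 and 2, and the fold change was -0.72 (SE 0.112, adjusted p = 0.0324). The block gave -0.65 and no call. Of 24 ABA marker genes, 2 were lower and none was higher, with a median of -0.31 and 5 positive values, and in replicate 3, 8 were positive, with a median of -0.12. COR15B, a chloroplast cold-protection protein, measured 128, 88.6 and 126 CPM in nup85-1, against 294, 219 and 204 CPM in Col-0, with no overlap, and fell by 1.24 on the log2 scale (SE 0.218, adjusted p = 0.0420). The block called COR15B at -1.07. GOLS1, an enzyme of raffinose synthesis, fell by 0.98 on the log2 scale (SE 0.105, adjusted p = 0.0135), with a difference of -0.20 in replicate 3.

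RD29B, a classical ABA-induced gene, measured 158, 161 and 123 CPM in nup85-1, against 243, 331 and 183 CPM in Col-0. Its libraries did not overlap, but its fold change of -0.84 was not called (SE 0.165, adjusted p = 0.0560). RD29A measured 3407, 3977 and 4679 CPM in nup85-1, against 3962, 3705 and 6454 CPM in Col-0, with overlap, for a fold change of -0.05 (SE 0.150, adjusted p = 0.894). COR47, a dehydrin, measured 3890, 3237 and 3694 CPM in nup85-1, against 4347, 4532 and 3981 CPM in Col-0, for a fold change of -0.31 (SE 0.162, adjusted p = 0.327). COR15A had a fold change of -0.40 (SE 0.278, adjusted p = 0.451). None of RD29A, COR47 and COR15A was called. COR15A and COR15B are close copies, so reads may be split between them.

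The promoters of 4 genes show how the ABRE core lies in genes described here: ABI5 and CSLG2, called lower in nup85-1, RD29B, which had lower values but was not called, and RAP2.4, called higher. These genes were picked as examples without a rule and do not stand for the called genes, whose shares follow the sequences. Each sequence runs 5′ to 3′ from 250 bases before to 50 after the gene start on the gene's strand (RefSeq, TAIR10.1). Capitals mark the ABRE core ACGTG on either strand, with the whole of CACGTG in capitals where both strands match. The windows are chr2:15207587-15207886 (minus strand) for ABI5, chr5:21236771-21237070 (plus strand) for RD29B, chr4:12461657-12461956 (plus strand) for CSLG2 and chr1:29363822-29364121 (plus strand) for RAP2.4.
ABI5: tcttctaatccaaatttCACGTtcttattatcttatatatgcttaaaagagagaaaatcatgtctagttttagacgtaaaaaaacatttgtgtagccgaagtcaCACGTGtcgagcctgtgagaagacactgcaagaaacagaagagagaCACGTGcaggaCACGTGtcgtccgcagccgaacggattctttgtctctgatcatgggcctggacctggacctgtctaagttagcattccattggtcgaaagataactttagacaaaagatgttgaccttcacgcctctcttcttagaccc
RD29B: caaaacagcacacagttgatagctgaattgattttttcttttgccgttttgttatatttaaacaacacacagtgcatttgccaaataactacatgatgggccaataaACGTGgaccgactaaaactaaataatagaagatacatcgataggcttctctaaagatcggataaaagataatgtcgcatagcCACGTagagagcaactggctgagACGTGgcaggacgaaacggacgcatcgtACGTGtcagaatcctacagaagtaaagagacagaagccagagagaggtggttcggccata
CSLG2: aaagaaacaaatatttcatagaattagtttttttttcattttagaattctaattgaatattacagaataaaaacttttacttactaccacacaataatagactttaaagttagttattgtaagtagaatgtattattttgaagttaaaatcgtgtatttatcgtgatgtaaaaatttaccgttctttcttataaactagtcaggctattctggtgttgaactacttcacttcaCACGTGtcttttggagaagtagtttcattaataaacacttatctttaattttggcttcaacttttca
RAP2.4: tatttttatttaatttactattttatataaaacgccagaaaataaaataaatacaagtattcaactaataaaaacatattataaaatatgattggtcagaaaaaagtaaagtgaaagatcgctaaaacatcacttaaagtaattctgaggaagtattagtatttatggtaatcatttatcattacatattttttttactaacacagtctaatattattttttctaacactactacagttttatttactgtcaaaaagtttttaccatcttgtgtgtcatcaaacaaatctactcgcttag
The ABI5 and RD29B windows held 4 marked sites each, the CSLG2 window 1 and the RAP2.4 window 0. Here a CACGTG, which matches on both strands, counts as 1 site. Over 300-base windows of all tested genes, 28.0% held ACGTG on either strand (5528 of 19745). Of the genes higher in nup85-1, 24.6% held it (71 of 289), and of the genes lower, 42.5% (127 of 299). Among the block calls the shares were 31.5% of 181 higher and 53.7% of 95 lower genes. Of the 829 genes that ABA induced at least 4-fold in Col-0, 50.1% held it. The G-box CACGTG, which contains the core, was in 7.96% of windows of higher genes and 12.7% of lower genes, against 8.95% of all, but among the block calls in 13.3% of higher and 13.7% of lower genes. The DRE core CCGAC, the site of CBF and DREB factors, was in 14.9% of higher and 11% of lower genes, against 16.3% of all, and among the block calls in 14.9% of higher and 14.7% of lower genes. Other motifs were also searched for and are not described here. A match describes the letters in the window and was not tested for binding.

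Defence genes were among the lowest values with replicates 1 and 2. The plant defensins of the PDF1 family, antifungal peptides induced by jasmonate and ethylene, were nearly absent from nup85-1 in these replicates. PDF1.2A had 0 reads in nup85-1 replicates 1 and 2 together, against 1296 in Col-0, which is at least 319-fold lower in nup85-1 against a floor of 3 reads over the group. PDF1.3 had 1 read in nup85-1 against 1373 in Col-0, a ratio of 1013 of Col-0 over nup85-1 after scaling for depth (95% interval 182 to 40043). PDF1.2c, chosen after its values were seen, had 1 read in nup85-1 against 411 in Col-0, a ratio of 303 (54.1 to 12007), and PDF1.2B had 1 against 57, a ratio of 42.1 (7.25 to 1690). Intervals and floors cover counting error only. The level in Col-0 was itself uneven, since PDF1.2A measured 0, 0 and 2.99 CPM in nup85-1, against 41.4, 10.5 and 2.00 CPM in Col-0. In replicate 3 PDF1.2A was low in both genotypes and higher in nup85-1. These genes are close copies, and their separate counts are uncertain. PDF1.2A and PDF1.2B were the 2 lower calls among 27 tested jasmonate genes, and the block called none.

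Salicylate-linked immunity genes gave 4 lower calls among 21 tested, where 1.51% of all tested genes were lower. PR1, the marker of salicylate defence, had 0 reads in nup85-1 replicates 1 and 2 against 483 in Col-0, at least 119-fold lower against a floor of 3 reads over the group. In replicate 3 PR1 measured 0.14 CPM in nup85-1, against 0 CPM in Col-0. PR2, a glucanase, measured 0.14, 0.311 and 1.54 CPM in nup85-1, against 4.16, 2.18 and 1.11 CPM in Col-0, and fell by 3.79 on the log2 scale (SE 0.538, adjusted p = 0.0256). PAD3, the last enzyme of camalexin synthesis, measured 9.14, 7.09 and 13.1 CPM in nup85-1, against 32.9, 19.9 and 10.1 CPM in Col-0, and fell by 1.71 on the log2 scale (SE 0.266, adjusted p = 0.0322). In replicate 3 PR2 and PAD3 were both higher in nup85-1. Under mock PR2 was also uneven, at 0.665, 37.6 and 1.94 CPM in nup85-1, against 2.89, 3.44 and 0.281 CPM in Col-0. SAG13, a senescence gene, measured 4.47, 4.41 and 3.03 CPM in nup85-1, against 13.6, 9.53 and 11 CPM in Col-0. It was lower in nup85-1 without overlap, by 1.38 on the log2 scale (SE 0.212, adjusted p = 0.0308), and was the 1 gene of the list called with the block, at -1.53. The medians of the salicylate and the jasmonate lists were -0.05 and 0.09, and genes at 0 lie below these medians at their bounds too.

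PR1 lies next to other genes that fell. LURP1, PRB1 and PR1 at chr2:6213617-6242541 were 3 adjacent tested genes called lower, and LURP1 and PRB1, both defence genes, were chosen after their values were seen. LURP1 fell by 2.65 and PRB1 by 1.45 on the log2 scale, while in replicate 3 they were 1.61 and 0.53 higher in nup85-1. NATA1, which acetylates ornithine in a jasmonate-induced defence route, measured 1.81, 1.37 and 11 CPM in nup85-1, against 21.6, 16.0 and 10.1 CPM in Col-0, for a fold change of -3.57 (SE 0.240, adjusted p = 0.00705). CYP71A12, an enzyme of camalexin and related indole synthesis, measured 1.61, 2.49 and 0.933 CPM in nup85-1, against 11.3, 18.0 and 0.962 CPM in Col-0, for a fold change of -2.79 (SE 0.326, adjusted p = 0.0160). TAT3, a tyrosine aminotransferase induced by jasmonate, had a fold change of -3.97 (SE 0.639, adjusted p = 0.0345) and measured 11.2 CPM in nup85-1 replicate 3, against 9.99 CPM in Col-0 replicate 3. For NATA1, CYP71A12 and TAT3 the genotypes were close together in replicate 3, and the block called none of them.

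HEI10, known for meiotic crossover, measured 1.12, 1.31 and 3.36 CPM in nup85-1, against 10.6, 11.3 and 2.85 CPM in Col-0, and fell by 3.15 on the log2 scale (SE 0.200, adjusted p = 0.00705). MRD1, at chr1:19963047-19964712, overlaps HEI10 at chr1:19963267-19966952, and had 3 reads in nup85-1 replicates 1 and 2 against 94 in Col-0, a ratio of 23.1 of Col-0 over nup85-1 (95% interval 7.67 to 114). Whether reads were assigned by strand is not given in the sources used here, so reads of these overlapping genes cannot be told apart. In replicate 3 both genes were low in both genotypes and did not lie lower in nup85-1.

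All 15 tested heat shock proteins and factors were negative with replicates 1 and 2, with a median of -0.77. Of these, 5 were called lower, where 1.51% of all tested genes were. In replicate 3, 14 of 15 were negative, with a median of -0.68. The wider set of genes annotated as heat shock proteins or chaperones was divided, with 52 of 120 tested positive, a median of -0.05, 9 called lower and 1 higher. Of 27 tested genes annotated as HSP20-like chaperones, 11 were positive, with a median of -0.21, and 4 were called lower. HSP17.6A, a small chaperone of the cytosol, measured 12, 11.7 and 35.8 CPM in nup85-1, against 25.7, 18.8 and 57.3 CPM in Col-0. Within each replicate nup85-1 lay below Col-0, with overlap between replicates because replicate 3 was highest in both genotypes, and it fell by 0.91 on the log2 scale (SE 0.169, adjusted p = 0.0482). AT1G53540, another small heat shock protein, measured 6.91, 6.77 and 15.5 CPM in nup85-1, against 14.7, 12.8 and 31.9 CPM in Col-0, and fell by 1.00 on the log2 scale (SE 0.144, adjusted p = 0.0264). The block called AT1G53540, HSP17.6A and HSP17.6II and none higher. AT2G29500 and HSP17.4 were the other calls with replicates 1 and 2, at -0.97 (SE 0.176, adjusted p = 0.0448) and -0.65 (SE 0.120, adjusted p = 0.0479). HSFA2, a heat shock factor, had a value of -0.73 and was not called (SE 0.212, adjusted p = 0.127).

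Genes of low-oxygen metabolism were divided. Of 50 tested hypoxia-induced genes, 4 were lower and 1 higher, with a median of -0.05. Over all tested genes 1.51% were lower and 1.46% higher. ADH1, alcohol dehydrogenase, measured 814, 657 and 1239.5 CPM in nup85-1, against 1523, 1348 and 1935 CPM in Col-0, and fell by 0.95 on the log2 scale (SE 0.158, adjusted p = 0.0364). Its nup85-1 libraries lay below every Col-0 library. SUS1, sucrose synthase, measured 345, 357 and 1111 CPM in nup85-1, against 859, 685 and 1862 CPM in Col-0, and fell by 1.13 on the log2 scale (SE 0.142, adjusted p = 0.0192), with nup85-1 below Col-0 within each replicate. The block called ADH1 and SUS1 lower and 2 genes of the list higher, and in replicate 3, 39 of the 50 were positive, with a median of 0.37. PDC1, pyruvate decarboxylase, which feeds ADH1, measured 40.2, 22.6 and 569.8 CPM in nup85-1, against 262, 196 and 565 CPM in Col-0, and fell by 2.86 on the log2 scale (SE 0.293, adjusted p = 0.0130). In replicate 3 PDC1 was high and nearly equal in both genotypes. AT1G19530 also fell, by 0.98 on the log2 scale (SE 0.0964, adjusted p = 0.0118), and measured 133 CPM in nup85-1 replicate 3, against 132 CPM in Col-0 replicate 3. AT4G10270, annotated as wound-responsive, was the 1 higher gene, at 0.95 (SE 0.156, adjusted p = 0.0355).

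Several families of detoxification and secondary metabolism held lower calls with replicates 1 and 2, where 1.51% of all tested genes were lower and 1.46% higher, and few or none with the block. Among 100 tested UDP-glycosyltransferases, which attach sugars to hormones and foreign compounds, 12 were lower and none higher, with a median of -0.15. The block called none of them, and in replicate 3, 48 were positive and 52 negative, with a median of -0.01. UGT73B3, UGT73B2 and UGT73B1 lie together at chr4:16343057-16350203 and were chosen after their values were seen. UGT73B1 measured 65.6, 74.7 and 150 CPM in nup85-1, against 138, 137 and 169.7 CPM in Col-0, and fell by 0.96 on the log2 scale (SE 0.102, adjusted p = 0.0134), with overlap through replicate 3. Among 23 tau class glutathione transferases 4 were lower, and among 10 phi class ones 3, with medians of -0.44 and -0.80. In replicate 3, 12 of the 23 tau class and 7 of the 10 phi class genes were positive, with medians of 0.02 and 0.14. GSTF7, a phi class enzyme, measured 41.4, 39.5 and 112 CPM in nup85-1, against 145, 109 and 93.2 CPM in Col-0, and fell by 1.64 on the log2 scale (SE 0.149, adjusted p = 0.0102), but replicate 3 had the opposite order. GSTF2 fell by 0.94 (SE 0.129, adjusted p = 0.0242) and GSTF14 by 1.05 (SE 0.179, adjusted p = 0.0385) on the log2 scale, and both were higher in nup85-1 in replicate 3. The block called no tau class and no phi class gene. Among 54 peroxidases 6 were lower with replicates 1 and 2 and 2 with the block, and 30 were positive in replicate 3. Among 160 cytochromes P450 7 were lower and 2 higher, against 0 lower and 1 higher with the block, and 88 were positive in replicate 3. Among 67 lipid transfer proteins 7 were lower and 1 higher, against 2 lower and 1 higher with the block, and 41 were positive in replicate 3.

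NIT2, a nitrilase, was chosen after its values were seen and measured 87.8, 118 and 96.5 CPM in nup85-1, against 389, 308 and 157 CPM in Col-0. It fell by 1.75 on the log2 scale (SE 0.180, adjusted p = 0.0130) and was lower in all 3 nup85-1 libraries than in any Col-0 library, without a call by the block.

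CSLG2, a cellulose synthase-like enzyme, was lower in nup85-1 in every replicate. It measured 1.05, 1.80 and 2.61 CPM in nup85-1, against 10.9, 9.08 and 9.95 CPM in Col-0, and fell by 2.79 on the log2 scale (SE 0.267, adjusted p = 0.0108). CSLG2 was called with the block at -2.45. Its neighbour CSLG3 had a fold change of -0.80 and was not called (SE 0.235, adjusted p = 0.130). AT5G39520, a DUF1997 protein, measured 3.98, 3.79 and 10 CPM in nup85-1, against 16.0, 17.1 and 21.8 CPM in Col-0, without overlap, and fell by 2.08 on the log2 scale (SE 0.148, adjusted p = 0.00792). LAC7, a laccase, measured 20.9, 16.6 and 14.7 CPM in nup85-1, against 55.5, 57.6 and 38.0 CPM in Col-0, also without overlap, and fell by 1.58 on the log2 scale (SE 0.136, adjusted p = 0.0101). LHT1, an amino acid transporter chosen after its values were seen, measured 7.19, 6.22 and 5.78 CPM in nup85-1, against 19.4, 15.2 and 15.7 CPM in Col-0, and fell by 1.37 on the log2 scale (SE 0.174, adjusted p = 0.0202). The block called AT5G39520, LAC7 and LHT1. AT3G28550, an extensin-like wall protein, was called with the block at -1.61 but not with replicates 1 and 2 (SE 0.242, adjusted p = 0.0553), and measured 16.1, 13.3 and 27.6 CPM in nup85-1, against 42.8, 26.0 and 142 CPM in Col-0. AT5G19110, an aspartyl protease, was called with both, at -1.94 (SE 0.317, adjusted p = 0.0354) and -1.49. PCK2, a gluconeogenic enzyme, had a fold change of -2.52 (SE 0.281, adjusted p = 0.0147) and was -0.58 in replicate 3.

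The triterpene genes of the thalianol cluster lie side by side at chr5:19434758-19461706, and CYP705A5, CYP708A2 and THAS1 were all lower with replicates 1 and 2. They were chosen after their values were seen and are expressed mainly in roots. THAS1, thalianol synthase, measured 13.1, 18.5 and 108 CPM in nup85-1, against 37.4, 41.3 and 146 CPM in Col-0, and fell by 1.3 on the log2 scale (SE 0.168, adjusted p = 0.0208). MRN1, which makes the related triterpene marneral, measured 9.63, 11.2 and 28.8 CPM in nup85-1, against 23.0, 37.7 and 61.2 CPM in Col-0, and fell by 1.52 on the log2 scale (SE 0.254, adjusted p = 0.0373). The block called MRN1 and none of the thalianol genes.

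Root markers also had lower values in nup85-1. Of 16 listed, 13 were tested with replicates 1 and 2, with a median of -0.59 and 1 positive value, and only PYK10 was called. The block called none, and in replicate 3, 4 were positive, with a median of -0.06. Their summed level was 678, 696 and 2476 CPM in nup85-1, against 1378, 1428 and 3350 CPM in Col-0, and no marker was at 0 in all 6 libraries. PYK10, a root beta-glucosidase that made up most of the sum, measured 601, 625 and 2355 CPM in nup85-1, against 1283, 1337 and 3208 CPM in Col-0, and fell by 1.09 on the log2 scale (SE 0.120, adjusted p = 0.0144). The endodermis gene CASP1 had a fold change of -0.83, while the root patterning factor SCR had 0.36, and neither was called. PIP1;4, 1 of 13 aquaporins, fell by 0.80 on the log2 scale (SE 0.0973, adjusted p = 0.0171) but measured 419 CPM in nup85-1 replicate 3, against 411 CPM in Col-0 replicate 3. The part of a root share in these results was not tested.

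Other lists gave few calls. Of 10 genes of the NUP107-160 subcomplex only NUP85 was called, and of 20 other nucleoporins none. Of these 20, 10 were negative with replicates 1 and 2, but 19 in replicate 3, with a median of -0.45 there. None of 46 nuclear photosynthesis genes was called with replicates 1 and 2, and the block called LHCB2.2 higher, an antenna protein that measured 166, 89.9 and 540 CPM in nup85-1, against 80.1, 61.8 and 267 CPM in Col-0. Of the 46, 16 were positive with replicates 1 and 2 and 44 in replicate 3, with medians of -0.14 and 0.46. None of 20 mitotic genes was called, with 18 of 20 negative and a median of -0.25, while in replicate 3, 15 of 20 were positive. None of 313 ribosomal protein genes was called, with a median of -0.09, against 0.15 in replicate 3. MYB28, which switches on glucosinolate synthesis, was the 1 of 15 glucosinolate genes called, at 0.81 (SE 0.131, adjusted p = 0.0348), and was not called with the block. Among 122 disease resistance genes of the NLR type, 4 were higher and none lower, with a median of 0.14, where 1.46% of all tested genes were higher. The block called 1 of them higher, and 61 of 122 were positive in replicate 3. Called genes were shorter, with a median span of 1800 bases for higher genes (1908.5 bases without SAUR genes) and 2052 bases for lower genes, against 2399 bases for all tested genes.

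Most genes called after ABA differed with the same sign in mock seedlings, whose libraries were not used in the calls. Of the 567 called genes that were also tested under mock with replicates 1 and 2, 513 had the same sign (90.5%), against 61.7% of all tested genes. Their median difference was 0.57 under mock and 1.00 after ABA, both in the direction of the call and on the log2 scale. The genes were selected by their values after ABA, which raises that median, so these medians do not show a larger difference after ABA. Under mock itself edgeR called 3 nuclear genes with replicates 1 and 2, and 427 with the block. The 3 were NUP85, lower at -3.46, and RAP2.4 and AT1G22190, higher at 2.45 and 1.80. RAP2.4 measured 572, 679.5 and 742 CPM in nup85-1, against 115, 114 and 368 CPM in Col-0 under mock. With all 3 replicates 0 genes were called under mock, with 999 at an unadjusted p under 0.05, and 61 with the block.

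SAUR genes were also higher under mock, with 40 of 44 tested positive and a median of 0.83, and SAUR6 was 0.86. Other genes had smaller or opposite values under mock. BHLH38 and BHLH100 had mock values of 0.20 and 0.48, against 2.09 and 2.68 after ABA, and under mock BHLH38 measured 35.6, 21.8 and 88.0 CPM in nup85-1, against 41.8, 6.44 and 72.5 CPM in Col-0, so that Col-0 replicate 2 was far below the other libraries. The median of the heat shock list was 0.22 under mock, over 10 tested genes. PDC1 was -0.30 under mock. The test of the difference itself, the interaction of genotype and treatment with replicates 1 and 2, called 2 of 20370 nuclear genes, FKF1 and NEET, and 0 with the block, where 1846 had an unadjusted p under 0.05. It gave -2.57 for PDC1 (SE 0.406, adjusted p = 0.144), 1.44 for SAUR6 (SE 0.226, adjusted p = 0.144), 2.2 for BHLH100 (SE 0.953, adjusted p = 0.536) and -2.54 for AT1G53540 (SE 0.529, adjusted p = 0.252). For these genes the genotype difference after ABA was therefore not shown to differ from that under mock.

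**Figure D5:**
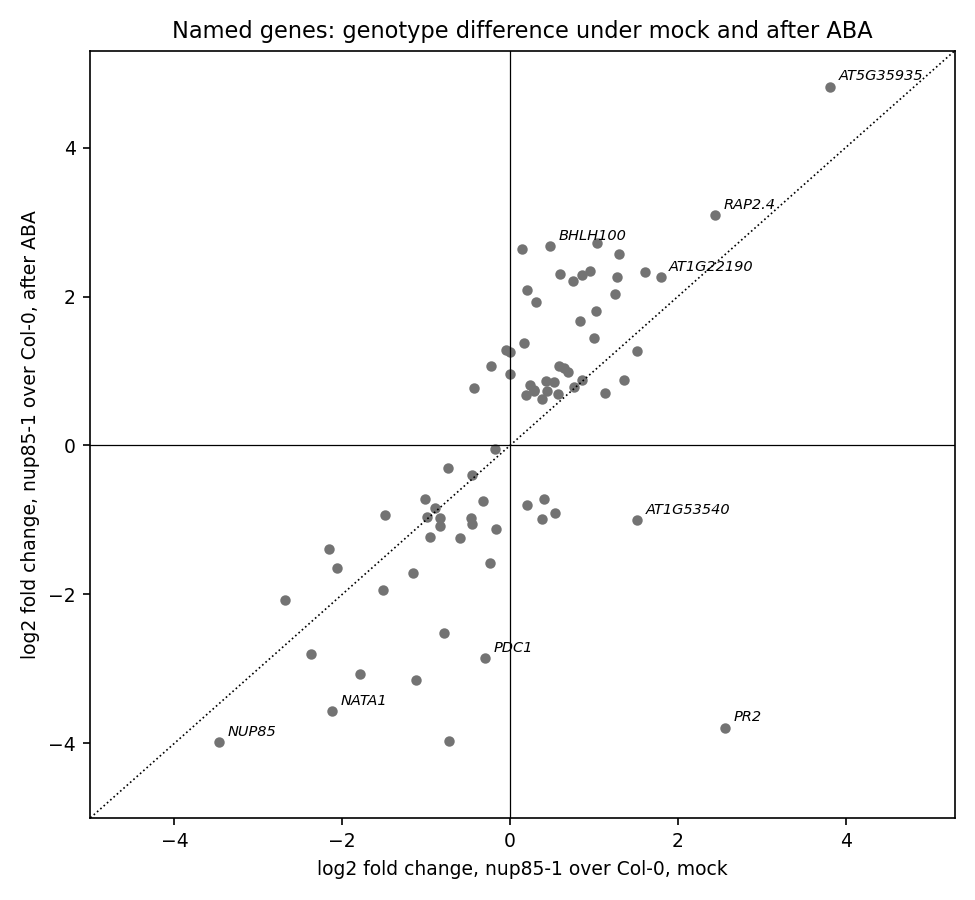
Log2 fold change of nup85-1 over Col-0 under mock (horizontal axis) and after ABA (vertical axis) with replicates 1 and 2, for the 77 genes named by rule that were tested in both; the dotted line marks equal values. RAP2.4, AT1G22190 and NUP85 lie far out on both axes, whereas BHLH100 and PDC1 are far from 0 after ABA only and PR2 has opposite signs.

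Genes called between the genotypes ranged from strong to weak ABA response in Col-0. In Col-0 replicates 1 and 2, ABA raised 829 nuclear genes and lowered 737 at least 4-fold. The ABA response in Col-0 shares its ABA libraries with the genotype comparison, so the values below are given side by side and no relation between them was tested. RD29B, which was not called, was 6.15 by ABA in Col-0 and -0.84 by genotype after ABA. ADH1 was 6.13 by ABA and -0.95 by genotype, SUS1 4.45 and -1.13, and HAI1 6.27 and -0.71. These genes were strongly raised by ABA in Col-0. AT1G22190 was 1.70 by ABA and 2.26 by genotype, RAP2.4 1.26 and 3.1, and TCH4 4.78 and 0.86. SAUR16 was -4.29 by ABA and 2.35 by genotype, and BHLH100 -2.97 and 2.68, so ABA lowered both in Col-0. ERF11, NATA1 and LAC7 lay under a 2-fold ABA response in Col-0, at 0.87, 0.85 and 0.98.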

How the data were processed

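The authors deposited a table of raw read counts per gene for 12 libraries. Per the paper's methods they checked reads with FastQC, trimmed them with fastx_trimmer, mapped them to TAIR10 with TopHat2, counted them with featureCounts and tested them with DESeq2. Versions, strand and the handling of reads that map to several genes are not given in the sources used here. Groups came from the sample labels, which do not say whether replicates were separate cultures, so p-values measure only the spread between these libraries.

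From the deposited counts, genes were filtered with filterByExpr, scaled by TMM and tested with the edgeR 4.0.16 quasi-likelihood test in R 4.3.3 over the whole table, with Benjamini-Hochberg adjustment. CPM are TMM-normalized. Replicate 3 differences are log2 CPM differences with a prior count of 2. Calls needed an adjusted p under 0.05 and a 1.5-fold change. Only nuclear genes were reported. Organelle genes were fitted but not described. The scripts were tested on simulated counts.

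Same-numbered libraries of the genotypes deviated together, with correlations of 0.63, 0.56 and 0.78 after ABA and 0.52, 0.47 and 0.73 under mock. Between replicate 1 of one genotype and replicate 2 of the other, correlations were 0.58 and 0.45 after ABA and 0.27 and 0.36 under mock. Those of replicate 3 with replicates 1 and 2 were negative. After ABA the correlations thus set replicate 3 apart more than they pair replicates 1 and 2 by number. The replicate number was also fitted as a block. Alternatives were DESeq2 1.42.0, other scalings, no filter, only nuclear genes, a 2-fold limit and leaving out each library.

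Named genes were the 12 highest and 12 lowest calls with replicates 1 and 2 and the 6 highest and 6 lowest with the block, at a mean of at least 5 CPM, up to 4 called members of each of 42 lists, and NUP85, RD29A, RD29B, COR47, COR15A and ABI5; 24 others were chosen after their values were seen. Of the 24, SAUR78 and AT1G47395 are not described. Some further genes, such as IRT1, FRO2, HSFA2 and MRD1, are given as examples and fall outside this rule. The comparison, the lists and the tests were chosen with earlier results of these data known. Promoter windows were taken from RefSeq TAIR10.1 for 19745 tested genes.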

Additional observations from a re-analysis of the deposited data

Results flagged for a closer look

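The difference between nup85-1 and Col-0 after ABA departed from that under mock for 2 nuclear genes by the interaction test of edgeR with replicates 1 and 2. FKF1 (AT1G68050), a blue-light receptor of the flowering clock, measured 91.5, 84.3 and 19.8 CPM in nup85-1, against 57.8, 62.1 and 43.9 CPM in Col-0 after ABA. Under mock it measured 19.3, 17.3 and 0.0718 CPM in nup85-1, against 38.0, 41.3 and 0.281 CPM in Col-0. The genotype difference was 0.56 after ABA and -1.12 under mock, and the interaction was 1.67 (SE 0.169, adjusted p = 0.0499). In replicate 3 FKF1 was lower in nup85-1 in both treatments. NEET (AT5G51720), an iron-sulfur protein, measured 1.26, 1.24 and 28.0 CPM in nup85-1, against 5.38, 5.25 and 28.5 CPM in Col-0 after ABA. Under mock it measured 35.2, 29.0 and 11.8 CPM in nup85-1, against 27.0, 22.9 and 18.0 CPM in Col-0. The genotype difference was -2.07 after ABA and 0.36 under mock, and the interaction was -2.43 (SE 0.254, adjusted p = 0.0499). In replicate 3 NEET was about equal between the genotypes after ABA. The replicate block called neither interaction, and with all 3 replicates edgeR called no interaction, with 309 genes at an unadjusted p under 0.05.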

How the results depend on the processing

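The count of 588 genes called with replicates 1 and 2 was 1130 without a filter on low counts, 1197 with the replicate block and 301 at a 2-fold limit, and ranged from 18 to 1374 when a library was left out. It was 595, 594, 691 and 815 with other size factors (RLE), upper-quartile scaling, nuclear genes only and DESeq2. With all 3 replicates the count of 0 became 277 with the block and 88 with DESeq2, and remained 0 under the other alternatives and with any library left out. Under mock, the 3 calls with replicates 1 and 2 became 427 with the block, and the 0 calls with all 3 replicates became 61. The 2 interaction calls became 0 with the block.

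Of the 108 genes checked, 17 had values on both sides of 0 when a library was left out of the fit over all 3 replicates, 14 of them called with replicates 1 and 2. Genes given only as further examples, such as IRT1, FRO2, HSFA2 and MRD1, were not among the 108. The log2 fold changes then ranged from -0.0628 to 2.12 for ARR7, -0.13 to 1.87 for ARR16, -1.61 to 4.07 for PRR9, -0.29 to 1.14 for LNK2, -0.23 to 1.87 for CBF3, -0.79 to 0.0436 for GSTF14, -1.68 to 0.22 for GOLS1, -1.25 to 0.12 for PIP1;4, -4.28 to 1.14 for AT5G19110, -3.55 to 0.065 for PCK2, -2.23 to 0.22 for THAS1, -2.15 to 0.14 for CYP708A2, -3.29 to 2.04 for CYP705A5, -3.37 to 0.93 for NEET, -0.0734 to 1.89 for LHCB2.2, -0.37 to 0.0674 for RD29A and -0.0638 to 0.71 for FKF1. The cause was not tested. Ratios of genes with few or no reads in 1 genotype, such as the defensins in nup85-1, are limited by depth. The defensins also differed between Col-0 libraries, where PDF1.2A measured 41.4, 10.5 and 2.00 CPM in replicates 1, 2 and 3.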
